A study of Homo sapiens with 16 samples.

Results

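The difference between MDA-MB-231 and SUM159 in their transcript response to YES1i was described gene by gene. YES1i (CH6953755) is a small-molecule inhibitor of YES1, a membrane-anchored tyrosine kinase of the Src family. The 4 groups were MDA-MB-231 with 8 uM YES1i, MDA-MB-231 with the solvent DMSO, SUM159 with 8 uM YES1i and SUM159 with DMSO, each collected 48 h after treatment with 4 poly(A) RNA libraries. Both are long-established cell lines from triple-negative breast tumours, labelled wild type (SUM159 as SUM159PT), and all 16 libraries of the series entered the comparison. For each gene, the log2 change with YES1i in SUM159 was subtracted from that in MDA-MB-231, so that a positive difference means a higher ratio of YES1i to DMSO in MDA-MB-231. Of 58735 genes in the deposited count table, 17647 had enough counts to be tested, and the difference was called for 5489 of them (31.1%) at an adjusted p under 0.05 (edgeR quasi-likelihood test, Benjamini-Hochberg over all tested genes). MDA-MB-231 was grown in RPMI and SUM159 in Ham's F12, and the lines were plated at unequal cell numbers, so line, medium and plating cannot be told apart.

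YES1 relays signals from growth factor receptors and cell adhesions, and the transcription co-activator YAP was named for its binding to it. Cells hold their sterol level through the SREBP factors. When sterol is scarce in the endoplasmic reticulum, SCAP carries SREBP to the Golgi for cleavage, and the freed factor turns on the genes of cholesterol synthesis, fatty acid synthesis and LDL uptake. When sterol is plentiful, INSIG proteins hold the SCAP complex back, while oxysterols act through the LXR receptors to raise the sterol exporters ABCA1 and ABCG1. Inflammatory chemokines are classic targets of NF-kB and AP-1, and the period and cryptochrome genes close the feedback loop of the circadian clock.

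Libraries held 15876171 to 36261542 counts. At a floor of 3 counts, a gene at 0 could stand as high as 0.0859 CPM in the deepest and 0.194 CPM in the shallowest library, for counting error only. The series text calls the 4 libraries of a group technical replicates, so p-values measure only the spread between these libraries. The chi-square over degrees of freedom between replicates of a group reached 7.93 in MDA-MB-231 and 24.4 in SUM159, where by this measure, which grows with depth, YES1i replicate 2 and DMSO replicate 1 (the deepest library) stood apart. By the root mean square log2 distance, DMSO replicate 1 was the nearest to the others of its group (0.428) and replicate 2 the furthest (0.456). Without the 2 libraries that stood apart by chi-square, 5569 differences were called. Mitochondrial rRNA took 1.28% to 1.48% of counts with YES1i, against 0.619% to 0.810% with DMSO, over both lines. Its part in the results was not tested. The 4 genes expected in mesenchymal triple-negative lines, VIM, CD44, AXL and MSN, were abundant in every group, while the oestrogen receptor gene ESR1 averaged 0.13, 0.06, 0.49 and 0.61 CPM in MDA-MB-231 YES1i, MDA-MB-231 DMSO, SUM159 YES1i and SUM159 DMSO. The progesterone receptor gene PGR had 8 counts over all 16 libraries, while the HER2 gene ERBB2 averaged 112, 108, 109 and 118 CPM in the same groups. Of 6 leukocyte markers 2 were tested, and the leukocyte gene PTPRC had 74 counts in all libraries together. Of 5 endothelial markers 3 were tested, and CDH5 had 3 counts in all. Their summed levels in MDA-MB-231 were 12.1 to 14.6 CPM with YES1i, against 10.0 to 11.8 CPM with DMSO, for leukocytes, and 14.8 to 18.5 CPM, against 6.26 to 9.16 CPM, for endothelium. In SUM159 they were 2.55 to 2.93 CPM with YES1i, against 0.822 to 1.42 CPM with DMSO, for leukocytes, and 18.3 to 20.1 CPM, against 10.0 to 11.9 CPM, for endothelium. The part of these markers in the results was not tested. Fewer cells of a type and less RNA per cell cannot be told apart in bulk RNA.

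The called differences fell into classes by the change called in each line. Of the 17647 genes, 595 (3.37%) rose in MDA-MB-231 and fell in SUM159, and 317 (1.80%) fell in MDA-MB-231 and rose in SUM159. A change was counted as restricted to a line when it was called there, when the other line had no call and a log2 change within 0.25 of 0, and when the difference itself was called. By this rule 1290 genes (7.31%) were restricted to MDA-MB-231, 879 of which rose and 411 fell, and 1366 (7.74%) to SUM159, 562 of which rose and 804 fell. A further 1417 genes (8.03%) changed in the same direction by unequal amounts, and 504 (2.86%) had a called difference outside these classes. The opposite classes made up 912 genes in all (5.17%), and 1102 genes (6.24%) had a called difference of at least 1 on the log2 scale. MDA-MB-231 had 8629 called changes (48.9%), of which 4737 were rises (26.8% of the genes tested) and 3892 falls (22.1%). SUM159 had 9105 (51.6%), of which 4431 were rises (25.1%) and 4674 falls (26.5%). The YES1i and DMSO libraries did not overlap for 47.3% of tested genes in MDA-MB-231 and for 43.3% in SUM159, shares to be kept in mind wherever groups are described as apart.

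The balance of directions depended on how libraries were scaled. With the TMM scaling used throughout, 3362 differences were higher in MDA-MB-231 (19.1% of tested genes) and 2127 lower (12.1%), which makes 61.2% of calls higher. With RLE scaling the counts were 2779 and 2494 (52.7% higher), with DESeq2 2915 and 2621 (52.7%), and with upper quartile scaling 2339 and 2987 (43.9%). The opposite classes turned likewise, to 365 genes that rose in MDA-MB-231 and fell in SUM159 and 490 of the reverse kind with upper quartile scaling. The median difference of all tested genes was 0.04 with TMM and -0.07 with upper quartile scaling, a shift of the zero point that applies to every difference given. At the edge of the call, TBC1D10A lay just inside (difference 0.41, edgeR adjusted p = 0.0499) and SIRT1 just outside (-0.31, edgeR adjusted p = 0.0501). Over all tested genes, which are not independent replicates, the changes of the 2 lines had a Pearson r of 0.367 and a Spearman rho of 0.430.

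**Figure D1:**
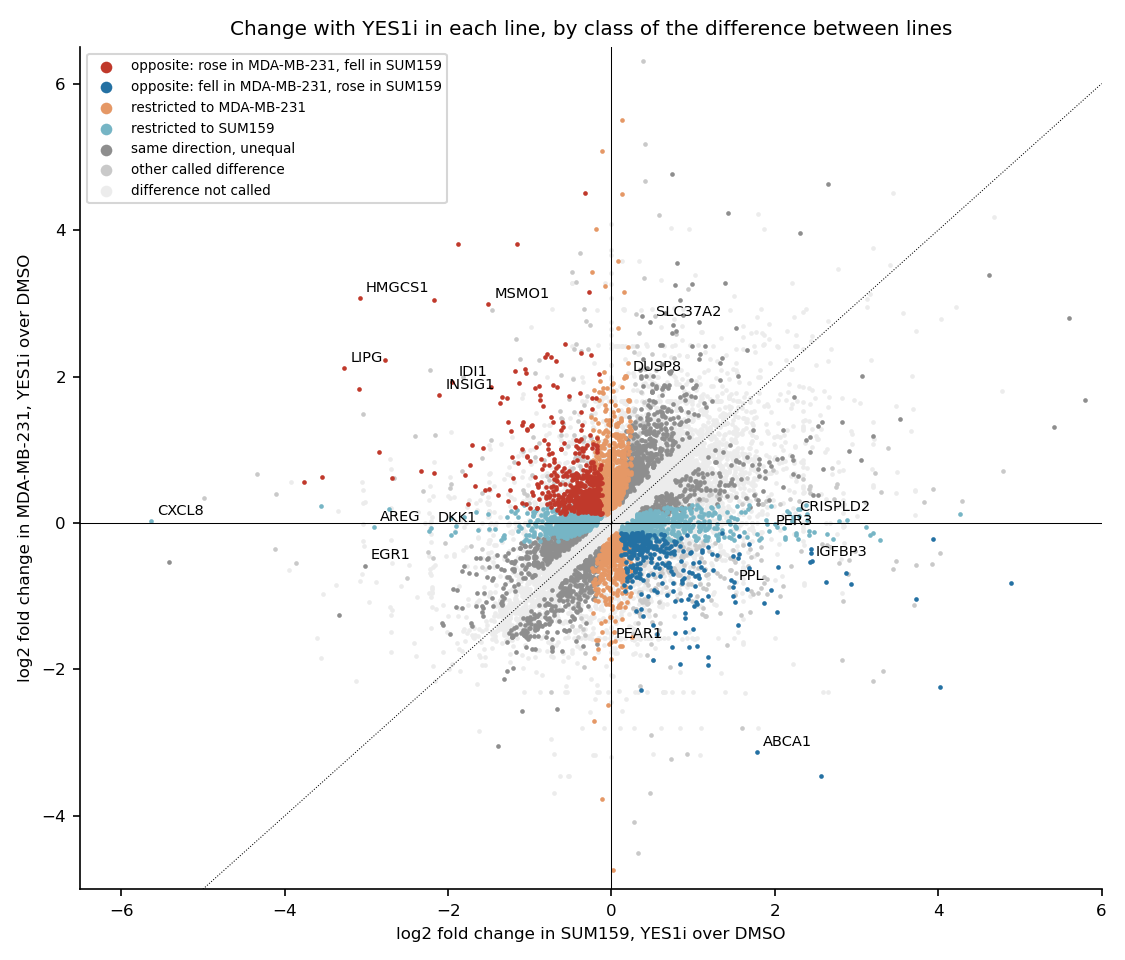
Log2 fold change with YES1i over DMSO in MDA-MB-231 (vertical) against that in SUM159 (horizontal) for each tested gene, coloured by class, with equal change on the dotted line and 2 genes outside the axes. The 595 red genes rose in MDA-MB-231 and fell in SUM159 with TMM scaling and the 317 blue genes did the reverse, counts that became 365 and 490 with upper quartile scaling.

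For some genes, not only those with opposite change, the order of the lines turned between DMSO and YES1i. For 296 tested genes (1.68%) all libraries of 1 line lay above all of the other with YES1i and below them with DMSO. These included 104 of the 595 genes that rose in MDA-MB-231 and fell in SUM159, or 17.5%, and 27 of the 317 of the reverse kind, or 8.52%. The rest were 60 genes that changed unequally in the same direction, 49 restricted to MDA-MB-231, 43 restricted to SUM159 and 13 outside these classes. Protein-coding genes made up 97.5% of those 595 genes and 89.9% of those 317, against 78.2% of all tested genes. This was not particular to opposite change. The share was 96.3% for the same direction, 94.2% and 92.0% for genes restricted to MDA-MB-231 and SUM159, and 71.9% without a called difference. The median level of the 595 genes was 57.5 CPM in MDA-MB-231 and 48.9 CPM in SUM159, against 14.4 and 14.7 CPM for all tested genes. The part of expression level in these shares was not tested.

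Of the 5 named genes with the largest opposite difference that was higher in MDA-MB-231, 4 belong to cholesterol synthesis or its control, where nearly every enzyme rose in MDA-MB-231 and fell in SUM159. In the arm that builds isoprenoids through mevalonate, 8 of 9 tested genes were opposite in this way, against 3.37% of all tested genes (median log2 change 1.86 in MDA-MB-231 and -1.28 in SUM159, median difference 3.05). The medians over all tested genes were 0.03, 0.02 and 0.04. HMGCS1, which condenses acetyl-CoA units into HMG-CoA at the entry of the pathway (ENSG00000112972, chr5:43289395-43313512 of hg38, minus strand), had 306, 345, 325 and 342 CPM in the MDA-MB-231 YES1i libraries, against 41.5, 37.2, 40.7 and 37.4 CPM in the MDA-MB-231 DMSO libraries. In SUM159 HMGCS1 had 41.2, 39, 37.9 and 41.4 CPM in the SUM159 YES1i libraries, against 367, 300.1, 341 and 344 CPM in the SUM159 DMSO libraries. The treated cells of each line thus stood near the level of the other line's untreated cells, with no overlap between YES1i and DMSO in either line. Its log2 change was 3.07 (SE 0.06) in MDA-MB-231 and -3.08 (SE 0.06) in SUM159, and the difference of 6.15 (SE 0.09, edgeR adjusted p = 1.56e-28) was larger than that of any other gene named by the rule for opposite change.

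The promoters of HMGCS1, of MSMO1 of the later steps and of the sterol sensor INSIG1 are shown because these are 3 of those 5 genes. They are the 250 bases before the RefSeq start site on GRCh38.p14, with CCAAT boxes in capitals, read as CCAAT on the printed strand or ATTGG where the box lies on the other strand. The RefSeq start need not be the start that the count table gives. CCAAT is the binding site of NF-Y, a known partner of SREBP at sterol genes.
HMGCS1, chr5:43313413-43313662, minus strand: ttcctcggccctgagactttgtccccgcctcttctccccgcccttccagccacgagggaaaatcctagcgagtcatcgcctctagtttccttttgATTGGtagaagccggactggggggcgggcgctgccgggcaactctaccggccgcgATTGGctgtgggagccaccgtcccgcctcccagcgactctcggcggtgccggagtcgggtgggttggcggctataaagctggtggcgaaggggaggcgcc
MSMO1, chr4:165327419-165327668, plus strand: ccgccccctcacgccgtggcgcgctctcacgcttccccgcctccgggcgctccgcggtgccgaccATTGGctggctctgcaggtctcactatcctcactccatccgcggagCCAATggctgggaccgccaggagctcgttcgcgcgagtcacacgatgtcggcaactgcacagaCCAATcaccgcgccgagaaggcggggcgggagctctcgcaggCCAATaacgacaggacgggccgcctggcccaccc
INSIG1, chr7:155297628-155297877, plus strand: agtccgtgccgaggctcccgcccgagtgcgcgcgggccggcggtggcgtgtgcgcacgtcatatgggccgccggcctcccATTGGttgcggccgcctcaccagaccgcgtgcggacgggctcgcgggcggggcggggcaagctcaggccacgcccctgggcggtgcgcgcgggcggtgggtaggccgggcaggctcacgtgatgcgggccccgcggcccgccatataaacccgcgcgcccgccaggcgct
HMGCS1 held boxes 155 and 100 bases before the start, MSMO1 at 185, 139, 76 and 34 bases, and INSIG1 at 170 bases. A second RefSeq start of HMGCS1 had no box in its 250 bases, and IDI1, not shown, had boxes before 2 of its 3 starts. Of all 27305 genes with a promoter in the RefSeq table, which spans 250 bases before to 50 after the start, 39.7% held CCAAT on either strand in at least 1 listed promoter. It was found for 8 of 10 matched genes of the 12 from squalene to cholesterol and for 10 of 13 matched genes of the 15 of fatty acid synthesis. The sterol element searched as TCACNCCAC on either strand, held by 1.39% of all genes, was found in no matched gene of these lists. Of 11 matched genes of the 14 that sense sterol and take up LDL, INSIG1 included, 5 held CCAAT and 1 the sterol element. With 6 of 9 genes matched, no share is given for the mevalonate arm. These letters are a description and name no bound factor.

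Most other enzymes of the mevalonate arm moved like HMGCS1. IDI1, the isomerase that makes the 2 isoprenoid building blocks interchangeable, had 266, 294, 278 and 295 CPM in the MDA-MB-231 YES1i libraries, against 74.1, 74.2, 75.9 and 74.9 CPM in the MDA-MB-231 DMSO libraries. In SUM159 IDI1 had 22.7, 25.2, 26.4 and 25 CPM in the SUM159 YES1i libraries, against 101, 96.1, 95.6 and 91 CPM in the SUM159 DMSO libraries. Again the lines changed places, with MDA-MB-231 above SUM159 in YES1i and below it in DMSO. The kinase MVK had log2 changes of 1.26 in MDA-MB-231 and -1.23 in SUM159, the decarboxylase MVD 2.10 and -1.06, the farnesyl diphosphate synthase FDPS 1.71 and -1.28, and the squalene synthase FDFT1 1.86 and -1.48. The thiolase ACAT2 had the most uneven pair, with 0.71 in MDA-MB-231 and -2.34 in SUM159. PMVK, the next kinase after MVK, had log2 changes of -0.12 and -0.09 and no called difference.

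From squalene to cholesterol 11 of 12 tested genes rose in MDA-MB-231 and fell in SUM159, against 3.37% of all tested genes (median 1.62 and -0.83, median difference 2.66). MSMO1, which removes methyl groups from the sterol ring, had 527, 592, 508 and 552 CPM in the MDA-MB-231 YES1i libraries, against 73.8, 65.4, 68.3 and 66.4 CPM in the MDA-MB-231 DMSO libraries. In SUM159 MSMO1 had 46.5, 52.4, 52.1 and 56.6 CPM in the SUM159 YES1i libraries, against 170.1, 132, 139 and 148 CPM in the SUM159 DMSO libraries. No library of a YES1i group overlapped its DMSO group, and the difference was 4.50 (SE 0.10, edgeR adjusted p = 1.9e-22). The epoxidase SQLE, a rate-limiting step, had 2.07 in MDA-MB-231 and -1.18 in SUM159, and the demethylase CYP51A1 2.21 and -0.68. The reductases TM7SF2 and DHCR7 rose by 2.31 and 2.04 in MDA-MB-231, with -0.79 and -1.05 in SUM159. The cyclase LSS, the isomerase EBP, the dehydrogenases HSD17B7 and NSDHL and the desaturase SC5D had 1.60, 1.28, 1.64, 1.14 and 1.51 in MDA-MB-231. The same 5 genes had -0.83, -1.03, -1.37, -0.83 and -0.38 in SUM159. LBR, a sterol reductase that also anchors chromatin at the nuclear envelope, fell in both lines (-0.45 and -0.62) with no called difference.

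Among the genes that sense sterol and take up LDL, the SREBP targets split between the lines while the transport and cleavage machinery mostly did not. Of 14 tested genes, 10 had a higher and 1 a lower difference, against 19.1% and 12.1% of all tested genes, and 6 were opposite (median difference 0.61). With upper quartile scaling the counts were 8 and 2. INSIG1, which holds the SCAP complex in the endoplasmic reticulum, had 362, 378, 357 and 366 CPM in the MDA-MB-231 YES1i libraries, against 107, 105, 107 and 117 CPM in the MDA-MB-231 DMSO libraries. In SUM159 INSIG1 had 54.9, 49.8, 52.1 and 59 CPM in the SUM159 YES1i libraries, against 240.1, 228, 231 and 229.7 CPM in the SUM159 DMSO libraries. All 4 groups were apart, and the lines changed places. The sterol carrier STARD4 had log2 changes of 0.74 in MDA-MB-231 and -0.58 in SUM159, and SREBF2, which encodes SREBP2, 1.02 and -0.24. SREBF1 fell in both lines, with changes of -0.32 and -0.58. SCAP (0.01 and -0.13), the protease MBTPS2 (0.17 and 0.08) and INSIG2 (0.12 and 0.28) had no called difference, and the protease MBTPS1 differed by 0.20. NPC1 and NPC2, which carry cholesterol out of lysosomes, rose in MDA-MB-231 by 0.72 and 0.98, with 0.06 and 0.16 in SUM159. MYLIP, a ubiquitin ligase and LXR target, went the other way (-0.88 and 0.23).

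Fatty acid synthesis followed the sterol genes. Of 15 tested genes 12 rose in MDA-MB-231 and fell in SUM159, against 3.37% of all tested genes (median 0.68 and -0.59, median difference 1.29). ACSS2, which makes acetyl-CoA from acetate, had 282, 279.6, 284 and 289 CPM in the MDA-MB-231 YES1i libraries, against 55.8, 61.8, 58.4 and 60.9 CPM in the MDA-MB-231 DMSO libraries. In SUM159 ACSS2 had 36.5, 28.8, 41.8 and 38.2 CPM in the SUM159 YES1i libraries, against 59.2, 59.3, 65.8 and 57.3 CPM in the SUM159 DMSO libraries. Its groups did not overlap in either line, but it overlaps GGT7, and the counting rule for shared reads is not given in the sources used here. The desaturase SCD had log2 changes of 1.84 and -0.94, the fatty acid synthase FASN 1.37 and -1.08, and the desaturase FADS2 1.31 and -0.59, in MDA-MB-231 and SUM159 in that order. The carboxylase ACACA and the citrate lyase ACLY had 0.57 and 0.49 in MDA-MB-231, with -0.30 and -0.80 in SUM159. The malic enzyme ME1 was restricted to MDA-MB-231 (0.67 and -0.02), and SCD5 and ELOVL5 had no called difference. LIPG, a secreted endothelial-type lipase, had 98.6, 100.5, 104 and 106 CPM in the MDA-MB-231 YES1i libraries, against 24.9, 21.8, 24.3 and 23.1 CPM in the MDA-MB-231 DMSO libraries. In SUM159 LIPG had 1.96, 1.63, 0.995 and 1.3 CPM in the SUM159 YES1i libraries, against 13.9, 15.2, 14.7 and 13 CPM in the SUM159 DMSO libraries, and the difference was 5.39 (SE 0.14, edgeR adjusted p = 1.4e-22). LIPG was higher in MDA-MB-231 with either treatment, and YES1i widened that gap.

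**Figure D2:**
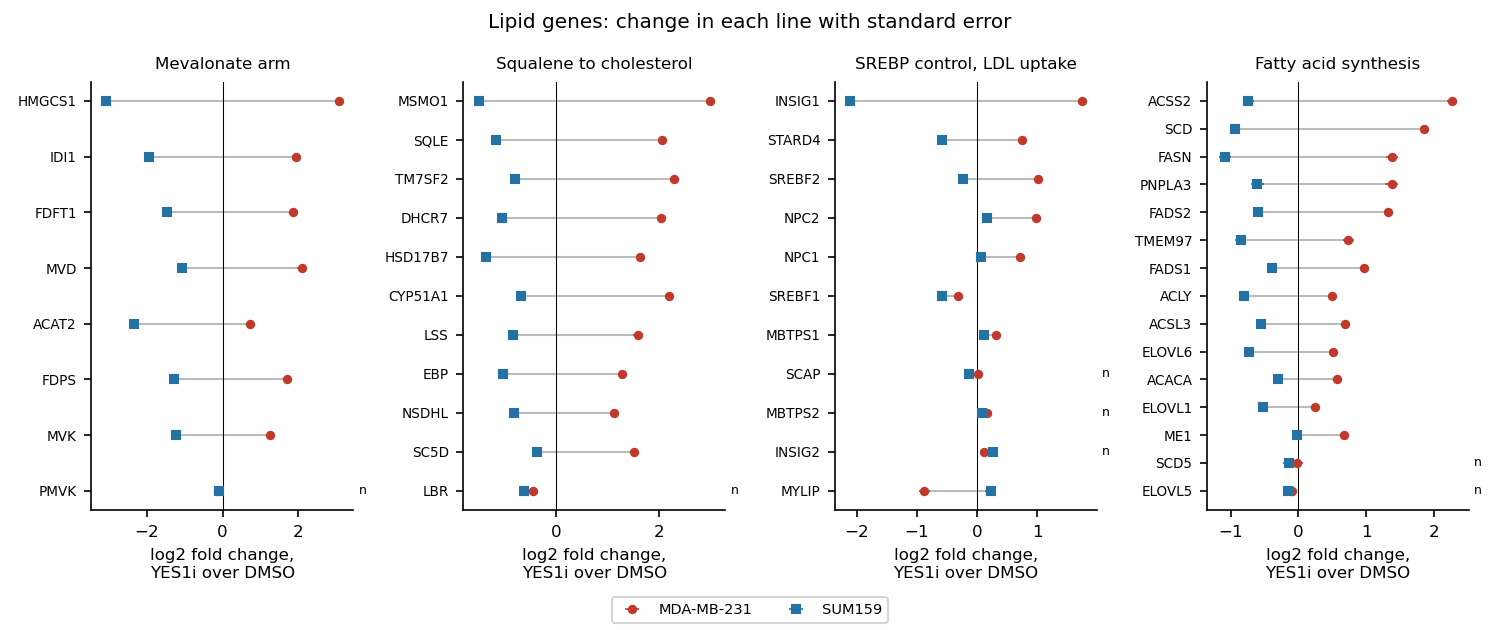
Log2 fold change with YES1i over DMSO (horizontal) for reported genes of 4 lipid lists, with circles for MDA-MB-231, squares for SUM159, bars for the standard error and n beside genes with no called difference. In the mevalonate arm 7 of 8 drawn genes have called changes right of 0 in MDA-MB-231 and left of it in SUM159, as do 10 of 11 from squalene to cholesterol and 12 of 15 of fatty acid synthesis. The counts over whole lists were the same with RLE and upper quartile scaling.

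In the direction opposite to synthesis, the sterol exporter ABCA1, which loads cholesterol and phospholipid onto apolipoproteins, fell in MDA-MB-231 and rose in SUM159. ABCA1 (chr9:104781002-104928237 of hg38, minus strand) had 10.9, 8.46, 8.16 and 8.95 CPM in the MDA-MB-231 YES1i libraries, against 79.3, 74, 82.5 and 83.7 CPM in the MDA-MB-231 DMSO libraries. In SUM159 ABCA1 had 17, 15.8, 15.6 and 19.3 CPM in the SUM159 YES1i libraries, against 4.78, 5.49, 4.82 and 4.76 CPM in the SUM159 DMSO libraries. The groups did not overlap in either line, the lines changed places, and the difference was -4.91 (SE 0.13, edgeR adjusted p = 3.68e-22). The other genes of LXR and sterol export moved in no common direction. Of 11 tested genes, ABCA1 included, 3 had a higher and 3 a lower difference, against 19.1% and 12.1% of all tested genes (median difference -0.05). The related exporter ABCG1 had -3.76 in MDA-MB-231 and -0.12 in SUM159, a change restricted to MDA-MB-231. Its MDA-MB-231 libraries had 0.172 to 0.608 CPM with YES1i, against 3.57 to 5.70 CPM with DMSO. YES1i replicate 1 was at what 3 counts give, so the size of this fall is uncertain. The apolipoproteins APOE and APOC1 rose in both lines with no called difference (1.79 and 2.16 for APOE, 0.94 and 0.98 for APOC1). NR1H2, which encodes LXR beta, had 0.20 in MDA-MB-231 and -0.18 in SUM159, and NR1H3, which encodes LXR alpha, rose by 0.98 and 0.94 with no called difference. Of 16 other ABC transporters 6 had a higher and 3 a lower difference, led by ABCA7 (1.05 and -0.43), whose treatments overlapped in SUM159.

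Several secreted and signalling genes also fell in MDA-MB-231 and rose in SUM159. IGFBP3, a carrier that restrains insulin-like growth factors (chr7:45912245-45921874 of hg38, minus strand), had 47.1, 51.1, 52.3 and 52 CPM in the MDA-MB-231 YES1i libraries, against 72.2, 71.1, 73.2 and 77.1 CPM in the MDA-MB-231 DMSO libraries. In SUM159 IGFBP3 had 20.3, 19.9, 20.4 and 17.4 CPM in the SUM159 YES1i libraries, against 3.92, 3.29, 3.72 and 3.29 CPM in the SUM159 DMSO libraries. YES1i and DMSO libraries were apart in each line, and MDA-MB-231 stayed above SUM159 throughout. IGFBP3 differed by -2.96 (SE 0.11, edgeR adjusted p = 1e-18). Among 16 genes of the IGF axis 3 had a higher and 8 a lower difference, against 19.1% and 12.1% of all tested genes. The median difference was -0.36, and the counts were 1 and 8 with upper quartile scaling. The protease PAPPA, which cleaves IGF carriers, and its substrate IGFBP4 followed IGFBP3, with -0.72 and -0.45 in MDA-MB-231, against 1.06 and 0.66 in SUM159.

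SAA1, an acute-phase protein, had 11.8 to 15 CPM with YES1i, against 36.1 to 39.6 CPM with DMSO, in MDA-MB-231, and 31.8 to 43.8 CPM with YES1i, against 17.6 to 20.6 CPM with DMSO, in SUM159. PPL, the desmosome and cornified envelope protein periplakin, had 39.8 to 47.1 CPM with YES1i, against 76.3 to 82.7 CPM with DMSO, in MDA-MB-231, and 27.2 to 32.2 CPM with YES1i, against 9.33 to 11.9 CPM with DMSO, in SUM159. SGK1, a kinase induced by serum and glucocorticoids, had 5.78 to 7.2 CPM with YES1i, against 15 to 16.7 CPM with DMSO, in MDA-MB-231, and 23.2 to 26 CPM with YES1i, against 11.4 to 14.1 CPM with DMSO, in SUM159. None of these overlapped between treatments in a line, and SAA1 and SGK1 changed places between the lines. Their differences were -2.45 (SE 0.13), -2.35 (SE 0.11) and -2.20 (SE 0.13), with edgeR adjusted p = 2.63e-15, 2.44e-16 and 1.35e-13. BCL2, the founding inhibitor of apoptosis, fell to 5.39 to 6.75 CPM with YES1i, against 11.1 to 11.9 CPM with DMSO, in MDA-MB-231. In SUM159 BCL2 rose to 41.7 to 52.2 CPM with YES1i, against 19.98 to 22.2 CPM with DMSO, a difference of -2.19 (SE 0.12). Of 18 genes of the BCL2 family 4 had a higher and 6 a lower difference, against 19.1% and 12.1% of all tested genes. The killers BAX and BAK1 were restricted to SUM159, where they fell (-0.11 and 0.02 in MDA-MB-231, -0.70 and -0.60 in SUM159). PDGFRB, a receptor of mesenchymal cells, had -0.95 and 0.55. It was the 1 called gene of 5 fibroblast markers, whose summed level was 22.7 to 29.2 CPM with YES1i, against 35.9 to 38.5 CPM with DMSO, in MDA-MB-231. In SUM159 that sum was 744 to 913 CPM with YES1i, against 734 to 868 CPM with DMSO, nearly all of it COL1A1, and its part in the results was not tested.

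Of 26 tested genes of the integrated stress response, 5 fell in MDA-MB-231 and rose in SUM159, and ATF3 did the reverse (0.57 and -0.66). In all 6 had a higher and 9 a lower difference, against 19.1% and 12.1% of all tested genes (median difference -0.13). SLC7A5, the carrier of large neutral amino acids, had 410.1, 416, 450.2 and 417 CPM in the MDA-MB-231 YES1i libraries, against 604, 671, 641 and 653 CPM in the MDA-MB-231 DMSO libraries. In SUM159 SLC7A5 had 1452, 1249, 1298 and 1275 CPM in the SUM159 YES1i libraries, against 566, 741, 597 and 567 CPM in the SUM159 DMSO libraries. With YES1i MDA-MB-231 lay below SUM159, and with DMSO the lines overlapped. The serine synthesis enzymes PHGDH and PSAT1 had -0.77 and -0.54 in MDA-MB-231, with 0.86 and 1.07 in SUM159. The folate enzymes MTHFD2 and SHMT2 had -0.72 and -0.31, with 0.59 and 0.38. Of other amino acid genes, the asparagine synthetase ASNS had 0.18 and 0.49 with no called difference, and the cystine carrier SLC7A11 0.57 and 0.03, restricted to MDA-MB-231. ATF4, the main factor of the response, and its target DDIT3 rose in both lines (0.56 and 1.00 in MDA-MB-231, 0.68 and 1.15 in SUM159) with no called difference. Members of this list beyond SLC7A5, like other list members outside the naming rule, were picked after their values were seen.

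Of 30 genes of hypoxia and glycolysis 7 had a higher and 12 a lower difference, against 19.1% and 12.1% of all tested genes (median difference -0.10). The carbonic anhydrase CA9, the peptide ADM, the mitophagy receptor BNIP3, the hexokinase HK2, the kinase PDK1 and GAPDH were opposite, with -0.41, -0.42, -0.20, -0.16, -0.32 and -0.20 in MDA-MB-231. They had 0.96, 0.72, 0.84, 0.43, 0.30 and 0.33 in SUM159. ANGPTL4, a lipase inhibitor, led the other direction, with 30.7 to 35.1 CPM with YES1i, against 3.81 to 5.09 CPM with DMSO, in MDA-MB-231, and 6.23 to 10.2 CPM with YES1i, against 4.55 to 5.81 CPM with DMSO, in SUM159. It rose in both lines, by 2.87 and 0.66. Among iron genes TFRC, the transferrin receptor, had -0.65 in MDA-MB-231 and 0.29 in SUM159, while the ferritin chains FTL and FTH1 rose more in MDA-MB-231 (1.86 and 1.66, against 1.02 and 1.23). In all 5 of 10 iron genes had a higher and 3 a lower difference, or 3 each with upper quartile scaling.

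**Figure D3:**
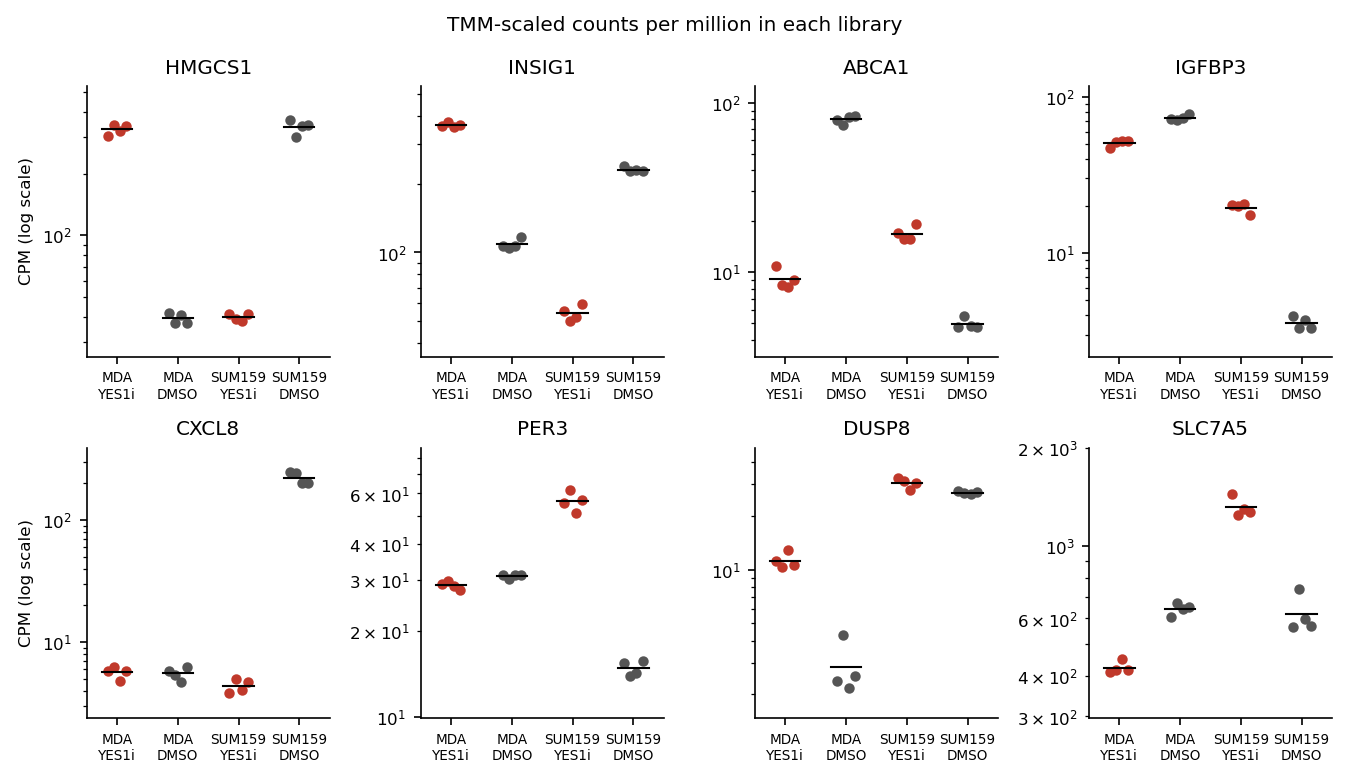
TMM-scaled CPM of 8 genes (log axes) in each library, for MDA-MB-231 YES1i, MDA-MB-231 DMSO, SUM159 YES1i and SUM159 DMSO from left to right, with a line at each group mean. HMGCS1, INSIG1, ABCA1, IGFBP3 and SLC7A5 move in opposite directions, DUSP8 changes with YES1i mainly in MDA-MB-231, and CXCL8 and PER3 in SUM159.

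Changes restricted to MDA-MB-231 included signalling genes. DUSP8, a phosphatase of stress-activated kinases, had 11.1, 10.3, 12.9 and 10.6 CPM in the MDA-MB-231 YES1i libraries, against 2.37, 4.3, 2.19 and 2.55 CPM in the MDA-MB-231 DMSO libraries. In SUM159 DUSP8 had 32.4, 31.5, 27.9 and 30.5 CPM in the SUM159 YES1i libraries, against 27.4, 26.9, 26.5 and 27.1 CPM in the SUM159 DMSO libraries. MDA-MB-231 stayed below SUM159 with either treatment. DUSP8 differed by 1.81 (SE 0.17, edgeR adjusted p = 1.68e-09). Its SUM159 libraries did not overlap between treatments, although the change there (0.18, edgeR adjusted p = 0.136) was not called. PDE5A, the cyclic GMP phosphodiesterase, rose by 1.68 (SE 0.14) in MDA-MB-231 and had 0.20 (SE 0.11) in SUM159.

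Of the falls restricted to MDA-MB-231, PEAR1, a platelet and endothelial receptor, had 3.83 to 5.27 CPM with YES1i, against 13.4 to 15.3 CPM with DMSO, in MDA-MB-231, and 11.6 to 14.2 CPM with YES1i, against 11.3 to 15.9 CPM with DMSO, in SUM159. TP73, a relative of the tumour suppressor p53, had -1.60 (SE 0.12) in MDA-MB-231 and -0.16 (SE 0.10) in SUM159. NEURL1B, a ubiquitin ligase of Notch ligands, had -1.31 (SE 0.12) and 0.13 (SE 0.14). In all 3 genes the treatments overlapped in SUM159 and not in MDA-MB-231. PDE5A, TP73 and NEURL1B each overlap another gene that has at least 10% as many counts, so their values are uncertain.

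The proton pump of lysosomes rose in MDA-MB-231 and hardly in SUM159. Of 18 tested V-ATPase genes 16 rose in MDA-MB-231, against 26.8% of all tested genes. In SUM159 4 rose and 5 fell, against 25.1% and 26.5% of all tested genes, and 16 had a higher and 0 a lower difference (median difference 0.47). With upper quartile scaling 6 rose and 2 fell in SUM159, and 14 had a higher difference. ATP6V0D1, a subunit of its membrane sector, had 73.3 to 80.3 CPM with YES1i, against 60.1 to 65.1 CPM with DMSO, in MDA-MB-231. In SUM159 ATP6V0D1 had 32 to 35.3 CPM with YES1i, against 49.8 to 52.7 CPM with DMSO. Most lysosomal enzymes rose in both lines, with the higher change in MDA-MB-231. Of 32 tested genes 27 had a higher and 2 a lower difference, against 19.1% and 12.1% of all tested genes (median log2 change 0.94 and 0.27). ASAH1, the acid ceramidase, had 205, 221, 203 and 228 CPM in the MDA-MB-231 YES1i libraries, against 41.5, 38, 40.2 and 39.2 CPM in the MDA-MB-231 DMSO libraries. In SUM159 ASAH1 had 44, 42.5, 41.1 and 41.1 CPM in the SUM159 YES1i libraries, against 26.6, 30.1, 28.5 and 24.7 CPM in the SUM159 DMSO libraries. The rise was 2.43 (SE 0.06) and 0.62 (SE 0.06). The cathepsins CTSB and CTSS, the galactosidase GLB1 and the sphingomyelinase SMPD1 were restricted to MDA-MB-231, where they rose by 0.89, 0.98, 0.90 and 0.96, though CTSS had under 1 CPM in every SUM159 library. CTSD and CTSK stood the other way, with 1.27 and 0.37 in MDA-MB-231, against 1.73 and 1.33 in SUM159.

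Of 23 autophagy genes 11 had a higher and 1 a lower difference, against 19.1% and 12.1% of all tested genes. With upper quartile scaling 6 had a higher and 2 a lower one. The cargo receptor SQSTM1, which overlaps MGAT4B, rose by 2.41 in MDA-MB-231 and 1.14 in SUM159. Of 11 genes of the MiT/TFE factors and Rag GTPases, which govern lysosome genes, 4 had a higher and 2 a lower difference, or 3 and 5 with upper quartile scaling. TFEB was restricted to MDA-MB-231 (0.42, against -0.16 in SUM159), while the lysosomal glycoprotein GPNMB rose further in SUM159 (3.38 and 4.63).

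Most genes of antigen presentation had the higher change in MDA-MB-231. Of 16 MHC class I genes 9 had a higher and 3 a lower difference, against 19.1% and 12.1% of all tested genes (median difference 0.38). In MDA-MB-231 9 rose, against 26.8% of all tested genes. In SUM159 4 rose, near the 25.1% of all tested genes, or 7 with upper quartile scaling. The heavy chain HLA-B was restricted to MDA-MB-231 (0.95, against 0.16), and the light chain B2M rose by 1.01 and 0.31. TAPBP, which loads peptide onto class I, had 427 to 485 CPM with YES1i, against 282 to 305 CPM with DMSO, in MDA-MB-231, and 129 to 159 CPM with YES1i, against 158 to 181 CPM with DMSO, in SUM159, with an overlap in SUM159. Reads of the HLA genes can be shared among them, and the counting rule for such reads is not given here. Of 36 interferon-stimulated genes 12 had a higher and 3 a lower difference, or 8 and 6 with upper quartile scaling. IFI27 had the largest called difference among those at 5 CPM or more, with 100.1 to 154 CPM with YES1i, against 49.5 to 58.4 CPM with DMSO, in MDA-MB-231, and 15.3 to 24.6 CPM with YES1i, against 9.22 to 22.2 CPM with DMSO, in SUM159. That call (difference 1.09, SE 0.34, edgeR adjusted p = 0.0265) ended with limma-voom (adjusted p = 0.0638) and when any of 7 libraries was left out.

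The 3 largest falls restricted to SUM159 under the naming rule were those of CXCL8, AREG and DKK1. Of their families, 3 of 14 tested chemokine and cytokine genes and 2 of 14 EGFR ligands and receptors were restricted to SUM159. The share over all tested genes was 7.74%. CXCL8, which attracts neutrophils (ENSG00000169429, chr4:73740506-73743716 of hg38, plus strand), had 5.79, 6.27, 4.85 and 5.8 CPM in the MDA-MB-231 YES1i libraries, against 5.81, 5.39, 4.71 and 6.25 CPM in the MDA-MB-231 DMSO libraries. In SUM159 CXCL8 had 3.81, 4.97, 4.09 and 4.76 CPM in the SUM159 YES1i libraries, against 245, 241, 201 and 199.7 CPM in the SUM159 DMSO libraries. The MDA-MB-231 groups overlapped, and treated SUM159 cells came down to about the level of MDA-MB-231. CXCL8 had a log2 change of 0.03 (SE 0.12) in MDA-MB-231 and -5.64 (SE 0.10) in SUM159, a difference of 5.66 (SE 0.16, edgeR adjusted p = 3.64e-21).

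Its promoter is shown as that of the gene with the largest restricted change among those named, for the 250 bases before the RefSeq start site on GRCh38.p14, with an AP-1 site (TGACTCA, 137 bases before the start) and an NF-kB site (GGAATTTCC, 91 bases before it) in capitals.
CXCL8, chr4:73740319-73740568, plus strand: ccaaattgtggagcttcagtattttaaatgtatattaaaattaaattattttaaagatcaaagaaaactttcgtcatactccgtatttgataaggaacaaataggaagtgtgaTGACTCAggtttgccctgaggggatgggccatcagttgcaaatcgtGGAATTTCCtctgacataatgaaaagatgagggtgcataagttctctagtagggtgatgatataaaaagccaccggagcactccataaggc
On either strand, TGACTCA was held by 6.05% of all genes with a promoter in the table and by 4 of 12 matched chemokine and cytokine genes. GGAATTTCC was held by 0.560% of all genes, by 4 of the same 12 genes and by 6 of 13 matched genes of NF-kB factors and feedback.

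Of 19 chemokine and cytokine genes 14 were tested (median difference 1.89). A higher difference was called for 8 and a lower one for 2, against 19.1% and 12.1% of all tested genes. In MDA-MB-231 1 fell and 4 rose, against 22.1% and 26.8% of all tested genes. In SUM159 10 fell and 1 rose, against 26.5% and 25.1%. CXCL2 and CXCL3, neutrophil chemokines from the same cluster as CXCL8, had 0.19 and -0.17 in MDA-MB-231, against -2.72 and -1.96 in SUM159. Their neighbour CXCL1 had 1.49 to 2.31 CPM with YES1i, against 1.09 to 1.84 CPM with DMSO, in MDA-MB-231, and 0 to 0.139 CPM with YES1i, against 1.41 to 2.65 CPM with DMSO, in SUM159, where the YES1i libraries were at or under what 3 counts give. LIF, a cytokine of the IL6 family, was opposite (0.38 in MDA-MB-231 and -1.39 in SUM159). The interleukins IL1B and IL24 rose in MDA-MB-231 by 2.92 and 2.41, with -0.34 and 0.20 in SUM159. The interleukin 1 antagonist IL1RN rose by 2.80 in MDA-MB-231. In SUM159 it had 0.13 to 0.476 CPM with YES1i, against 0 CPM in every DMSO library, so no fold is given there. Of 15 genes of NF-kB factors and feedback 11 had a higher and 0 a lower difference (median difference 0.50). In SUM159 12 fell, against 26.5% of all tested genes. TRAF1, a signalling adaptor induced by NF-kB, had 27.3 to 32.3 CPM with YES1i, against 18 to 20.7 CPM with DMSO, in MDA-MB-231, and 3.33 to 4.64 CPM with YES1i, against 8.13 to 11.9 CPM with DMSO, in SUM159. The feedback inhibitors TNFAIP3 and NFKBIA were opposite as well (0.38 and 0.15 in MDA-MB-231, -0.97 and -0.35 in SUM159). The adhesion molecule ICAM1 was restricted to MDA-MB-231 (1.41, against -0.07).

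AREG, a ligand of the EGF receptor, had 51 to 58.6 CPM with YES1i, against 55.6 to 62 CPM with DMSO, in MDA-MB-231, and 2.32 to 3.33 CPM with YES1i, against 18.7 to 24.1 CPM with DMSO, in SUM159. DKK1, a secreted inhibitor of Wnt signalling, had 342 to 384 CPM with YES1i, against 383 to 389 CPM with DMSO, in MDA-MB-231, and 8.36 to 10.8 CPM with YES1i, against 39.1 to 45.9 CPM with DMSO, in SUM159. Neither overlapped between treatments in SUM159, and both did in MDA-MB-231. Their differences were 2.85 (SE 0.13) and 2.14 (SE 0.09), with edgeR adjusted p = 3.29e-16 and 1.8e-17. Of 14 EGFR ligands and receptors 6 had a higher and 2 a lower difference, against 19.1% and 12.1% of all tested genes. EGFR itself was opposite (-0.30 in MDA-MB-231 and 0.38 in SUM159).

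The rises restricted to SUM159 included CRISPLD2, a secreted glycoprotein, the clock gene PER3 and TAGLN, an actin-binding marker of smooth muscle. CRISPLD2 had 36, 36.8, 37.2 and 34.1 CPM in the MDA-MB-231 YES1i libraries, against 35.6, 33, 34.4 and 33.3 CPM in the MDA-MB-231 DMSO libraries. In SUM159 CRISPLD2 had 367, 375, 377 and 373 CPM in the SUM159 YES1i libraries, against 82, 79.1, 80.2 and 78.5 CPM in the SUM159 DMSO libraries. TAGLN, which overlaps PCSK7, had 8.77 to 10.1 CPM with YES1i, against 8.55 to 9.35 CPM with DMSO, in MDA-MB-231, and 31.3 to 43.6 CPM with YES1i, against 9.22 to 10.4 CPM with DMSO, in SUM159. The treatments overlapped in MDA-MB-231 for both genes. Their differences were -2.14 (SE 0.07) and -1.85 (SE 0.15), with edgeR adjusted p = 2.43e-20 and 5.07e-11.

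Most clock genes had the lower change in MDA-MB-231. Of 18 tested genes 2 had a higher and 12 a lower difference, against 19.1% and 12.1% of all tested genes. The median log2 change was 0.21 in MDA-MB-231 and 1.17 in SUM159 (median difference -0.92). PER3 (chr1:7784320-7845177 of hg38, plus strand) had 28.9, 29.8, 28.5 and 27.6 CPM in the MDA-MB-231 YES1i libraries, against 31.3, 30.3, 31.1 and 31.1 CPM in the MDA-MB-231 DMSO libraries. In SUM159 PER3 had 55.5, 61.9, 51.3 and 56.9 CPM in the SUM159 YES1i libraries, against 15.4, 13.9, 14.3 and 15.6 CPM in the SUM159 DMSO libraries. MDA-MB-231 lay below SUM159 with YES1i and above it with DMSO, and the small fall in MDA-MB-231 (-0.11, edgeR adjusted p = 0.187) was not called, though its libraries did not overlap. PER2, CRY2 and the repressor NR1D2 were also restricted to SUM159, with -0.06, 0.14 and -0.01 in MDA-MB-231, against 1.19, 1.18 and 0.78 in SUM159. The output factors DBP and TEF rose in both lines, by 0.89 and 0.45 in MDA-MB-231, against 2.09 and 1.16 in SUM159. ARNTL, the activator that drives the period genes, stood the other way (0.36 and -0.43), as did the repressor BHLHE40 (0.47 and -0.17).

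The promoter of PER3 is shown because PER3 rose in SUM159 alone by the rule above and a D-box, the site of DBP and related factors (TTATGTAA, 177 bases before the RefSeq start on GRCh38.p14, in capitals), lies in its 250 bases.
PER3, chr1:7784041-7784290, plus strand: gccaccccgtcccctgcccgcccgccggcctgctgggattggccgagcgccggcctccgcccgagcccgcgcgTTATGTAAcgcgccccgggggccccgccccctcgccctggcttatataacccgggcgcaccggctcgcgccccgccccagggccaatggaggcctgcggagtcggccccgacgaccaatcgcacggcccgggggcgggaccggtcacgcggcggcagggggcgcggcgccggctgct
On either strand the D-box letters were held by 1.13% of all genes in the table and by 2 of 17 matched clock genes. A second RefSeq start of PER3 had no D-box in its 250 bases. The E-box CACGTG, the site of the CLOCK and ARNTL pair, was held by 8.77% of all genes and by 6 of 17 matched clock genes. Neither RefSeq start of PER3 had an E-box in its 250 bases.

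Most contractile genes had the lower change in MDA-MB-231. Of 22 tested targets of SRF and its MRTF co-activators 2 had a higher and 14 a lower difference, or 1 and 16 with upper quartile scaling. The shares over all tested genes were 19.1% and 12.1% with TMM scaling (median difference of the list -0.37). In MDA-MB-231 5 rose and 10 fell, against 26.8% and 22.1% of all tested genes. In SUM159 14 rose and 3 fell, against 25.1% and 26.5%. Smooth muscle actin ACTA2 and the myosin light chain MYL9 were opposite (-0.82 and -0.14 in MDA-MB-231, 0.86 and 1.35 in SUM159), and the tropomyosins TPM1 and TPM4 were restricted to SUM159 (-0.04 and -0.02 in MDA-MB-231, against 0.89 and 0.44 in SUM159). Of 29 targets and partners of YAP and TAZ, co-activators that respond to adhesion and tension, 2 had a higher and 18 a lower difference (median difference -0.36). In MDA-MB-231 21 fell and 4 rose, and in SUM159 12 fell and 11 rose, or 9 and 14 with upper quartile scaling. CYR61, a matricellular target, was restricted to MDA-MB-231 (-0.71, against 0.09), while CTGF fell in both (-1.04 and -0.82). YAP1 and its partner TEAD1 were opposite (-0.13 and -0.64, against 0.37 and 0.19).

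**Figure D4:**
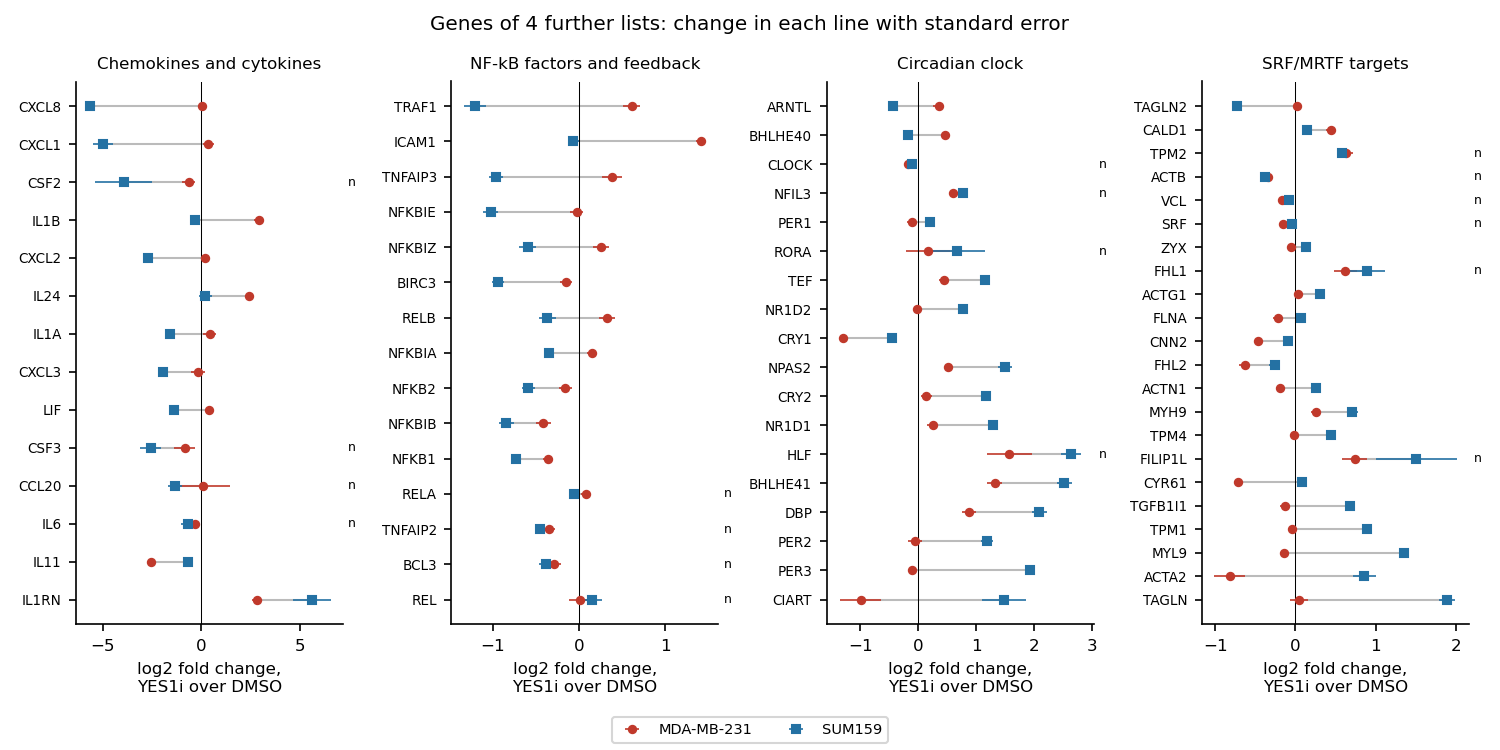
Log2 fold change with YES1i over DMSO (horizontal) for each tested gene of 4 further lists, with circles for MDA-MB-231, squares for SUM159, bars for the standard error and n beside genes with no called difference. In SUM159, chemokine and NF-kB genes lie mostly left of 0 and clock and SRF/MRTF genes mostly right of it. Of clock genes 12 of 18, and of SRF/MRTF genes 14 of 22, have a called lower difference, against 12.1% of all tested genes.

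Many feedback genes of the ERK pathway had the higher change in MDA-MB-231. Of 22 tested genes 13 had a higher and 1 a lower difference, against 19.1% and 12.1% of all tested genes (median difference 0.43). By class, 6 of the 22 rose in MDA-MB-231 and fell in SUM159, against 3.37% of all tested genes. Another 4 were restricted to MDA-MB-231 and 2 to SUM159, and 8 had no called difference. With upper quartile scaling 5 were opposite in this way and 1 in the reverse. In MDA-MB-231 12 rose and 3 fell, against 26.8% and 22.1% of all tested genes. In SUM159 2 rose and 12 fell, against 25.1% and 26.5%. IER3, an early response gene, had 289, 263, 324 and 311 CPM in the MDA-MB-231 YES1i libraries, against 205, 226, 209 and 233 CPM in the MDA-MB-231 DMSO libraries. In SUM159 IER3 had 34.6, 39.1, 33.7 and 31.2 CPM in the SUM159 YES1i libraries, against 112, 106, 98.6 and 90.5 CPM in the SUM159 DMSO libraries. No YES1i library overlapped DMSO in either line. The ERK phosphatases DUSP6 and DUSP5 and the inhibitors SPRY4 and SPRY2 were opposite too, with 0.51, 1.04, 0.50 and 0.72 in MDA-MB-231, against -1.67, -0.92, -0.90 and -0.34 in SUM159. CCND1, the cyclin of G1, had no called difference (-0.02 and -0.04). Of 19 immediate early genes 8 had a higher and 3 a lower difference, or 7 and 5 with upper quartile scaling. EGR1, a growth factor-induced zinc finger factor, fell in both lines but much further in SUM159, with 3.41 to 5.52 CPM with YES1i, against 5.57 to 7.57 CPM with DMSO, in MDA-MB-231, and 1.77 to 2.2 CPM with YES1i, against 13.3 to 20.7 CPM with DMSO, in SUM159. The difference for EGR1 was 2.44 (SE 0.23, edgeR adjusted p = 1.58e-09).

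Nearly all cell division genes fell in both lines. A difference was called for 22 of 44 tested genes of G2/M and mitosis and for 12 of 42 of DNA replication. Over all tested genes the share was 31.1%. All 44 of the first list had lower levels with YES1i in both lines. Falls were called for 43 in MDA-MB-231 and 44 in SUM159, against 22.1% and 26.5% of all tested genes. The difference was lower in MDA-MB-231 for 21 and higher for 1 (median log2 change -1.42 and -1.06), or for 30 and 1 with upper quartile scaling. CENPA, the histone that marks centromeres, fell in both, with -1.54 in MDA-MB-231 and -0.90 in SUM159, and it overlaps SLC35F6. All 42 genes of DNA replication had called falls in both lines, against the same 22.1% and 26.5% of all tested genes. Of these 42 genes, 10 had a higher and 2 a lower difference, or 4 and 5 with upper quartile scaling. FEN1, the flap endonuclease, had -1.16 and -1.83, and it overlaps FADS2. Chaperones of the endoplasmic reticulum mostly had the higher change in MDA-MB-231. Of 19 tested, 12 had a higher and 0 a lower difference (8 and 1 with upper quartile scaling). With TMM scaling 19.1% and 12.1% of all tested genes had these. PDIA4, a disulphide isomerase, had 259 to 296 CPM with YES1i, against 352 to 362 CPM with DMSO, in MDA-MB-231, and 152 to 177 CPM with YES1i, against 368 to 385 CPM with DMSO, in SUM159. The master chaperone HSPA5 fell in both lines (-0.45 and -0.93).

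Among the named genes that changed unequally in the same direction, SLC37A2, a sugar phosphate carrier, rose to 669.9 to 718 CPM with YES1i, against 98.5 to 107 CPM with DMSO, in MDA-MB-231. In SUM159 SLC37A2 rose to 61.6 to 79.4 CPM with YES1i, against 48.8 to 55.6 CPM with DMSO. MMP17, a membrane-type metalloprotease, had 8.1 to 9.86 CPM with YES1i, against 0.872 to 2.02 CPM with DMSO, in MDA-MB-231, and 24.3 to 28.6 CPM with YES1i, against 18.8 to 22.6 CPM with DMSO, in SUM159. PPME1, which removes a methyl group from the phosphatase PP2A, had 71.1 to 82.7 CPM with YES1i, against 241 to 256 CPM with DMSO, in MDA-MB-231, and 51.7 to 61.1 CPM with YES1i, against 61.5 to 70.3 CPM with DMSO, in SUM159. All treatments were apart in both lines, and the changes in MDA-MB-231 were the larger, with differences of 2.28 (SE 0.09), 2.45 (SE 0.20) and -1.48 (SE 0.08). PPME1 overlaps C2CD3, which leaves its value uncertain.

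The naming rule took 4 genes, 2 per line, that had a called difference while the other line averaged under 1 CPM. ATP6V0D2, a V-ATPase subunit best known from osteoclasts, had 11 to 11.8 CPM with YES1i, against 0.238 to 0.339 CPM with DMSO, in MDA-MB-231, and 0.0929 to 0.389 CPM with YES1i, against 0 to 0.581 CPM with DMSO, in SUM159. KCP, a secreted regulator of BMP signals that overlaps ATP6V1F, had 9.5 to 15.8 CPM with YES1i, against 0.436 to 0.618 CPM with DMSO, in MDA-MB-231, while in SUM159 it had 0 to 0.0465 CPM with YES1i, against 0 to 0.0459 CPM with DMSO, which is at or under what 3 counts give. The response of KCP in SUM159 was below what this depth can show, so its fitted difference is no bound, and the call (4.36, SE 1.61, edgeR adjusted p = 0.0396) was lost when low counts were kept (adjusted p = 0.0777) and without the SUM159 libraries that stood apart (0.154). IGFBP5, another IGF carrier, had 0 to 0.384 CPM with YES1i, against 0.143 to 0.388 CPM with DMSO, in MDA-MB-231, and 87.7 to 99.98 CPM with YES1i, against 11 to 16.2 CPM with DMSO, in SUM159. AOC3, a vascular amine oxidase, had 0.669 to 1.1 CPM with YES1i, against 0.381 to 1 CPM with DMSO, in MDA-MB-231, and 7.85 to 10.7 CPM with YES1i, against 1.35 to 1.56 CPM with DMSO, in SUM159. For each gene the treatments were apart in the line that expressed it and overlapped in the other.

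The transcript of YES1 itself did not carry a called difference. YES1 had 87.4, 96.3, 90.4 and 99 CPM in the MDA-MB-231 YES1i libraries, against 93.6, 89.1, 98.2 and 96.2 CPM in the MDA-MB-231 DMSO libraries. In SUM159 YES1 had 79.9, 94.9, 95.4 and 85.3 CPM in the SUM159 YES1i libraries, against 104, 101, 98.5 and 107 CPM in the SUM159 DMSO libraries. The groups overlapped in MDA-MB-231 and not in SUM159, where the log2 change was -0.21 (SE 0.06, edgeR adjusted p = 0.00392). The difference of 0.19 (SE 0.08, edgeR adjusted p = 0.0815) became called without SUM159 YES1i replicate 2 (adjusted p = 0.0312) or replicate 3 (0.0499), and without both SUM159 libraries that stood apart (0.0445). Of 9 tested Src family kinases and regulators, LYN (0.18 in MDA-MB-231 and -0.41 in SUM159) was opposite and FYN (-0.11 and 0.24) restricted to SUM159. The treatments overlapped for LYN in MDA-MB-231, where its change had an edgeR adjusted p = 0.0304. SRC (0.23 and 0.07), FRK (1.41 and 0.84) and BLK (0.59 and 0.98) had no called difference, and BLK had only 0 to 0.35 CPM with YES1i, against 0 to 0.365 CPM with DMSO, in MDA-MB-231. The transcript level says nothing of kinase activity, which was not measured. Among 29 integrin and focal adhesion genes 12 had a higher and 8 a lower difference, against 19.1% and 12.1% of all tested genes. With upper quartile scaling the counts were 9 and 11. ITGA10, a collagen-binding integrin chain, rose by 2.84 in MDA-MB-231 and 0.87 in SUM159, and the caveolar protein CAV1 fell in both (-1.04 and -0.63).

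The remaining lists held called differences in both directions or in few members. Of 35 matrix genes 6 had a higher and 15 a lower difference, against 19.1% and 12.1% of all tested genes (median difference -0.21). SPARC, a collagen-binding protein, was restricted to MDA-MB-231 (-1.49, against 0.03) and the collagen VI chain COL6A3 was opposite (-0.63 and 0.35). Of 19 metalloproteases and inhibitors 7 had a higher and 5 a lower difference, or 4 and 5 with upper quartile scaling, with the aggrecanase relative ADAMTS15 restricted to SUM159 (-0.15 and 1.49). Of 34 TGF-beta and BMP genes the counts were 8 and 9, with the latent complex protein LTBP2 at 0.82 and -1.14 and the ligand TGFB1 at 0.63 and -0.26. Of 27 epithelial and mesenchymal markers 1 was higher and 7 lower, with the keratin KRT7 at -0.25 and 0.36 and vimentin, VIM, at -0.14 and 0.32. Of 8 genes of the aryl hydrocarbon receptor 5 were higher and 0 lower, led by CYP1B1 (2.01 and 0.42). Of 21 NRF2 targets 12 were higher and 1 lower, or 12 and 3 with RLE and 11 and 4 with upper quartile scaling.

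Of 24 genes of p53 and arrest 7 were higher and 5 lower, against 19.1% and 12.1% of all tested genes. With upper quartile scaling 6 were higher and 8 lower. The cell cycle inhibitor CDKN1A had 168, 183, 192 and 195 CPM in the MDA-MB-231 YES1i libraries, against 93.4, 98, 96.1 and 107 CPM in the MDA-MB-231 DMSO libraries. In SUM159 CDKN1A had 96.6, 83.3, 98.5 and 91.9 CPM in the SUM159 YES1i libraries, against 109, 119, 111 and 116 CPM in the SUM159 DMSO libraries. Its treatments were apart in each line, in opposite directions. Of 21 lipid nuclear receptors and targets 7 were higher and 3 lower. Of 8 metallothionein and zinc genes 4 were higher and 1 lower, with MT1X restricted to MDA-MB-231 (1.37, against -0.17), a gene whose close copies can share reads. Of 13 mitochondrial mRNAs 2 were higher and 1 lower, or 1 and 1 with upper quartile scaling, with MT-CO3 restricted to SUM159 (-0.07 and -1.11). The shares with a called difference, 8 of 27 epithelial and mesenchymal, 3 of 13 mitochondrial and 12 of 42 replication genes, lay near or under the 31.1% of all tested genes. Among the markers of the lines, AXL fell in both, with -0.93 in MDA-MB-231 and -0.24 in SUM159. The luminal factor GATA3 was opposite (-0.36 and 0.43), with an overlap of treatments in SUM159.

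**Figure D5:**
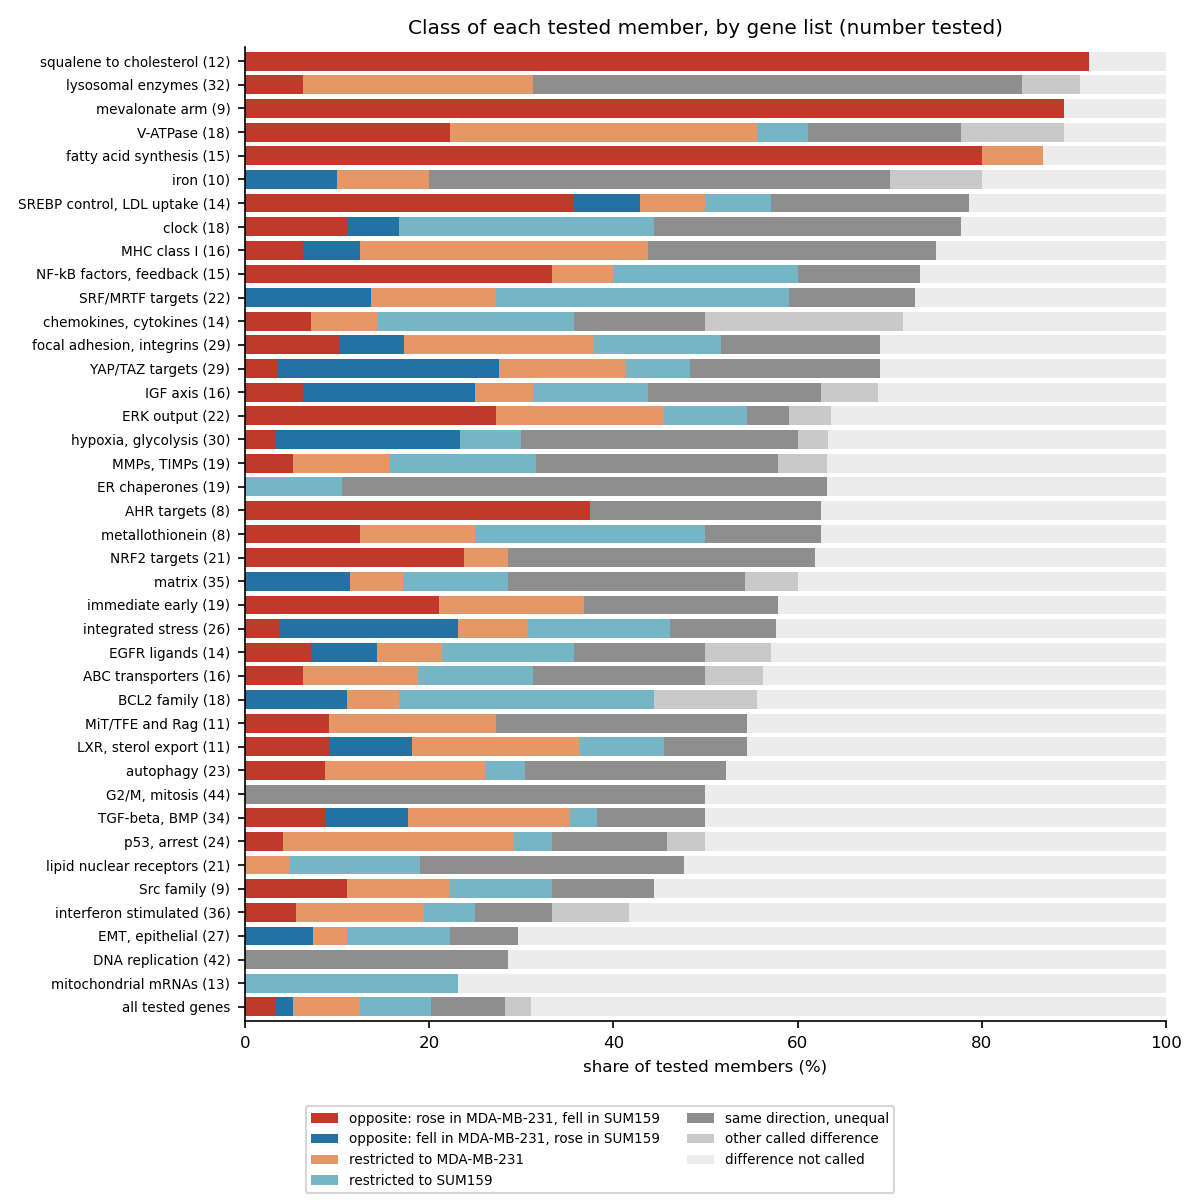
Share of the tested members of each gene list (percent, horizontal; number tested in brackets) in each class of the difference, with all tested genes at the bottom. The 3 lists of cholesterol and fatty acid synthesis are almost wholly red (8 of 9, 11 of 12 and 12 of 15 genes), the G2/M and DNA replication lists hold called differences in the same direction only, and red and blue shares of all genes, 3.37% and 1.80% with TMM scaling, change order with upper quartile scaling.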

How the data were processed

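Poly(A) RNA of 2 cell lines with YES1i or DMSO was sequenced in 4 libraries per group. The authors deposited raw read counts per gene, 1 column per library, with each gene's coordinates and length. HISAT2 2.0.5, featureCounts 1.5.0-p3 and the build hg38 are named per the submitters' processing notes. How strand, multi-mapped reads and overlapping genes were treated is not given in the sources used here, so genes that overlap others or have close copies are uncertain.

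Samples were grouped by line and treatment from their labels. From the counts, genes kept by filterByExpr on the 4 groups were scaled by TMM and fitted with edgeR 4.0.16 (glmQLFit, robust, R 4.3.3) with 4 group means. Contrasts compared YES1i with DMSO within MDA-MB-231, within SUM159, and as the MDA-MB-231 change minus the SUM159 change. Adjusted p-values are Benjamini-Hochberg over all 17647 tested genes. A called gene has an adjusted p under 0.05. CPM values use the TMM-scaled library size. A standard error is the log2 change divided by the square root of its F statistic. At totals of 15876171 to 36261542 counts, 1 library's value of a gene at 3 counts or less is set by counting error.

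Named genes were protein-coding, with a mean of at least 5 CPM in both lines except where stated, and, in the classes, with no overlap of YES1i and DMSO libraries where a call was needed. They were the 5 largest opposite differences in each direction, 3 rises and 3 falls restricted to each line, 2 unequal rises and 2 unequal falls, 2 genes per line under 1 CPM in the other line, the largest called difference of each list whether or not libraries overlapped, and the tested Src family kinases at any level. Members, motifs and the 45 gene lists were chosen with earlier results of these data known, so lists carry no test. Of the named genes 3 are not reported here, nor are some list members, which the counts include. Other list members were picked after their values were seen. Promoters are RefSeq sequences of GRCh38.p14. Their matching to genes was by symbol or gene ID, and it covered 65.1% of tested genes, too few to give shares over all tested genes or over the classes. Alternatives were 2 scalings (upper quartile, RLE), limma 3.58.1 (voom, with and without group weights), DESeq2 1.42.0, 2 other filters, a replicate block, other thresholds and leaving out each library.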

Additional observations from a re-analysis of the deposited data

Results flagged for a closer look

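The change with YES1i differed between the lines by the test of the difference itself (edgeR) for 5489 of 17647 genes and for 62 of the 66 genes named by the rule. Differences are log2 changes in MDA-MB-231 minus those in SUM159. Of the genes that changed in opposite directions, HMGCS1 (6.15), LIPG (5.39), MSMO1 (4.50), IDI1 (3.87), INSIG1 (3.85), ACSS2 (3.00), TAPBP (0.87), ATP6V0D1 (0.91), ABCA7 (1.48), IER3 (2.00), TRAF1 (1.82), LTBP2 (1.96), CDKN1A (1.20) and LYN (0.59) had the higher change in MDA-MB-231. ABCA1 (-4.91), IGFBP3 (-2.96), SAA1 (-2.45), PPL (-2.35), SGK1 (-2.20), BCL2 (-2.19), SLC7A5 (-1.70), PDGFRB (-1.50), TFRC (-0.95), GATA3 (-0.79) and KRT7 (-0.61) had the lower one. The treatments overlapped in MDA-MB-231 for LYN and in SUM159 for TAPBP, ABCA7 and GATA3.

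A change restricted to MDA-MB-231 gave the differences of DUSP8 (1.81), PDE5A (1.48), PEAR1 (-1.63), TP73 (-1.44), NEURL1B (-1.44), IFI27 (1.09), MT1X (1.53) and TFEB (0.59). KCP (4.36) rose in MDA-MB-231, but its SUM159 libraries were at or under what 3 counts give, so this value is no bound. A change restricted to SUM159 gave those of CXCL8 (5.66), AREG (2.85), DKK1 (2.14), CRISPLD2 (-2.14), PER3 (-2.04), TAGLN (-1.85), ADAMTS15 (-1.64), MT-CO3 (1.04) and FYN (-0.35). Genes outside these classes were MMP17 (2.45), SLC37A2 (2.28), EGR1 (2.44), PPME1 (-1.48), ATP6V0D2 (4.76), IGFBP5 (-3.33), AOC3 (-2.40), ASAH1 (1.81), SQSTM1 (1.27), PDIA4 (0.84), CYP1B1 (1.59), ANGPTL4 (2.22), ITGA10 (1.96), CENPA (-0.65), FEN1 (0.67) and AXL (-0.69). ATP6V0D2 in SUM159 (0 to 0.581 CPM) and IGFBP5 in MDA-MB-231 (0 to 0.388 CPM) had few counts. The sizes of their differences (SE 0.89 and 0.65) are therefore uncertain.

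In 19 of 264 groups of 4 libraries, 1 library was flagged, and chance flags about 1 in 20 groups. In these, its gap to the nearest neighbour, divided by the range of the 4, was above Dixon's 95% value. In MDA-MB-231 YES1i the libraries were TAGLN in replicate 3 at 10.1 CPM (others 8.77 to 8.88), PPME1 in replicate 1 at 71.1 (others 81.2 to 82.7), ATP6V0D2 in replicate 3 at 11.8 (others 11 to 11.1) and AXL in replicate 3 at 772 (others 694 to 704). In MDA-MB-231 DMSO they were PER3 in replicate 2 at 30.3 CPM (others 31.1 to 31.3), BCL2 in replicate 4 at 11.1 (others 11.8 to 11.9) and AXL in replicate 2 at 1386 (others 1360.3 to 1364). In SUM159 YES1i they were IGFBP5 in replicate 3 at 99.98 CPM (others 87.7 to 89.6), ADAMTS15 in replicate 2 at 8.08 (others 12.1 to 12.8), CENPA in replicate 3 at 18.7 (others 14.9 to 15.2), FEN1 in replicate 2 at 23.8 (others 28.7 to 29.5), SRC in replicate 2 at 72.5 (others 86.4 to 88.6) and BLK in replicate 3 at 3.54 (others 4.79 to 4.94). In SUM159 DMSO they were ABCA1 in replicate 2 at 5.49 CPM (others 4.76 to 4.82), PPL in replicate 1 at 9.33 (others 11.5 to 11.9), TRAF1 in replicate 2 at 11.9 (others 8.13 to 8.58), ATP6V0D1 in replicate 2 at 52.7 (others 49.8 to 50.3), CYP1B1 in replicate 4 at 4.46 (others 6.2 to 6.33) and LTBP2 in replicate 1 at 18.0 (others 23.9 to 24.7).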

How the results depend on the processing

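Over all genes the counts stayed within 1.5 times under every scaling, tool and filter tried, while the split by direction turned as given above. At an adjusted p under 0.01, 545 opposite genes and 773 of the same direction were left. With a bound of 0.1 on the other line, 743 genes were restricted to MDA-MB-231 and 835 to SUM159. With a difference of at least 1, 1102 genes were called, 319 of them opposite, 164 restricted to MDA-MB-231 and 161 to SUM159. Class membership moved more than the counts, since with upper quartile scaling 653 of 912 opposite genes (71.6%), 663 of 1290 restricted to MDA-MB-231 (51.4%), 1009 of 1366 restricted to SUM159 (73.9%) and 982 of 1417 of the same direction (69.3%) kept their class. Leaving out each of 16 libraries in turn gave 4906 to 5600 called differences, 8011 to 9108 changes in MDA-MB-231, 8472 to 9204 in SUM159, 804 to 939 opposite genes, 1162 to 1343 restricted to MDA-MB-231, 1221 to 1378 restricted to SUM159 and 1166 to 1511 of the same direction. Without the 2 SUM159 libraries that stood apart, an alternative chosen after seeing the data, 923 genes were opposite, 1377 restricted to MDA-MB-231, 1272 to SUM159 and 1514 of the same direction. Higher and lower counts of a list then moved by more than 1 for MHC class I (11 and 2), NRF2 targets (12 and 3), epithelial and mesenchymal markers (3 and 6), immediate early genes (8 and 5), YAP and TAZ (2 and 21) and G2/M (1 and 26).

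Replicate numbers are shared in the labels, but same-numbered libraries did not deviate together (correlations -0.107 to 0.0116, none over 0.1), and no library correlated best with its own number. With the replicate number as a block, 4641 differences, 8049 changes in MDA-MB-231 and 8416 in SUM159 were called, with 748 opposite, 1174 and 1196 restricted to MDA-MB-231 and SUM159, and 1077 of the same direction.

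Of 660 values of named genes under these settings 650 kept direction and call, as did 1042 of 1056 with a library left out. IFI27 lost its call with limma-voom with group weights (adjusted p = 0.0691), no low-count filter (0.0554), the block (0.125) and without MDA-MB-231 YES1i replicate 3, MDA-MB-231 DMSO replicate 3, SUM159 YES1i replicate 2 or 3, or SUM159 DMSO replicate 2, 3 or 4 (0.0526 to 0.0695). KCP lost it with the block (0.0668) and without SUM159 YES1i replicate 1 (0.0563) or 3 (0.0593) or SUM159 DMSO replicate 1 (0.173) or 3 (0.203). The difference of BLK, never called, ran over these from -0.76 to 0.47, which was the value without MDA-MB-231 DMSO replicate 4 (adjusted p = 0.708). The cause was not tested. Genes near 3 counts per library are limited by depth.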
